A study of Mus musculus with 10 samples.

Results

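Choline and one-carbon enzymes were followed across mouse embryonic stem (ES) cells, 2 stages of primitive neural stem cells, definitive neural stem cells and neural stem cells from the embryonic brain. The set was a list of 10 genes: Chdh, Bhmt, Bhmt2, Dmgdh, Sardh, Gldc, Shmt1, Shmt2, Mthfd2 and Tdh. Of these, 9 had a value among the 19938 genes analysed, each read from the probe set with the highest mean. Tdh, the threonine dehydrogenase gene, was not analysed here. The list was chosen by array values of the primitive stages, in which Dmgdh and Bhmt2 were higher in the secondary passage. The values behind that choice are given as a description, with no p-value, and nothing is read from calls in that comparison.

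There were 5 groups of 2 biological replicates, 1 Affymetrix gene array each. The group mESC consisted of cells of the R1 line, derived from the 129/Sv strain, grown on inactivated embryonic fibroblasts in 15% serum with the cytokine Lif at 1000 U/ml. Primary spheres (p-NSC_L) formed from R1 cells in serum-free N2 medium with the same Lif. Secondary spheres (p-NSC_LF) were replated from these with Lif at 1000 U/ml, FGF at 10 ng/ml and heparin at 2 μg/ml. Definitive cells (d-NSC) were passaged from primitive ones into N2 and B27 with EGF and FGF at 20 ng/ml each and heparin, without Lif. The group CNS-NSC was grown from the brain (frontal lobes) of wild-type ICR embryos at E11.5 in N2 with the same EGF, FGF and heparin. The first 4 groups are therefore labelled as 1 ES line. CNS-NSC differs from them in strain as well as in origin, and from each of them in medium. Against d-NSC the labelled difference of medium is B27. Strain, origin and medium cannot be told apart. From p-NSC_L to p-NSC_LF the passage, FGF and heparin changed together, and from p-NSC_LF to d-NSC the loss of Lif, EGF, B27, the FGF dose and further passages did.

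Choline is oxidised in mitochondria to betaine, which gives a methyl group to homocysteine to make methionine. The dimethylglycine left over loses its remaining methyl groups, by way of sarcosine, to become glycine, and these carbons enter the folate pool. Serine and glycine feed the same pool through serine hydroxymethyltransferases and the glycine cleavage system, and the pool supplies purine and thymidylate synthesis. The choline-to-glycine part of the route is best known from liver and kidney. Mouse ES cells are known for their reliance on threonine and glycine breakdown.

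Bhmt2 and Dmgdh lie head to head in the mouse genome. In RefSeq (GRCm38.p6) their starts are 134 bases apart on opposite strands of chromosome 13, so the windows of 250 bases before to 50 after each start overlap by 233 bases. The window of Dmgdh (chr13:93674186-93674485, plus strand) is shown because it holds both starts, and capitals mark the stretch from the Bhmt2 start to the Dmgdh start. The window of Bhmt, the neighbouring paralog of Bhmt2 (chr13:93637709-93638008, minus strand), is shown for contrast.
Dmgdh and Bhmt2: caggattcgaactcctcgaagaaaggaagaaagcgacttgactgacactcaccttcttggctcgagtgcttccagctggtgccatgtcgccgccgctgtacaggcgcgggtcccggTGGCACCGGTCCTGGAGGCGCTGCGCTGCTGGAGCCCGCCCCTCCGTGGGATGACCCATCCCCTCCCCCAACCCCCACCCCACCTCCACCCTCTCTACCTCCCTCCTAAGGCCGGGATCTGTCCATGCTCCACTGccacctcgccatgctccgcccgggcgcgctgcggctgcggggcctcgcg
Bhmt: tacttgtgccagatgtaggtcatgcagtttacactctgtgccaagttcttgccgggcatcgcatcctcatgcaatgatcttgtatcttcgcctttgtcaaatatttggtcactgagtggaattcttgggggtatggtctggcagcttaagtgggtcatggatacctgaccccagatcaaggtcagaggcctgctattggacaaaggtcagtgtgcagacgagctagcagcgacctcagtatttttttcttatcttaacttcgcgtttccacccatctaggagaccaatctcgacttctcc
The Dmgdh window is 68.0% G or C with 25 CG dinucleotides and the Bhmt2 window 73.7% with 26, whereas that of Bhmt is 48.0% with 8. The median of all 32851 windows is 52.7% G or C. Both strands of each window were searched for 4 motifs. These were the TATA box, spelled with the letters TATAAA, then the E-box, which has the letters CACGTG, then the GC box, which has the letters GGGCGG, and a site of the stress factors ATF4 and C/EBP, which has the letters TGATGNAA. The GC box, present in 35.7% of all windows, begins 99 bases before and 16 bases after the Dmgdh start, and the first of these lies between both starts. No other of the 4 motifs is in the Dmgdh or Bhmt2 window, and none of the 4 is in that of Bhmt, Sardh, Shmt2 or Mthfd2. The remaining motifs are in 13.6% (TATA box), 7.2% (E-box) and 4.0% (ATF4 and C/EBP) of all windows. A match in these letters is a description and not a binding site.

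Values are log2 intensities, and differences are the first group minus the second, with the SE of the limma fit (2 arrays in each group). Rose and fell are used of genes whose adjusted p, over all genes, was below 0.05. Precision is limited by having 2 arrays a group, and p-values set a difference against a spread between replicates that is shared by all groups. For orientation, the lower quartile ranged over 6.39 to 6.49 and the median over 7.66 to 7.76 from array to array. Each probe set has its own response, so no gene's level is set against another's. All 6 ES cell markers (Pou5f1, Nanog, Zfp42, Esrrb, Tdgf1 and Utf1) lay above the median gene in mESC, both primitive groups and d-NSC, and none did in CNS-NSC. Of 6 neural stem cell markers, all lay above it in d-NSC and CNS-NSC, but 2 did in p-NSC_L and in p-NSC_LF, where Nes read 6.94 to 7.38. The purine salvage gene Hprt read 6.99 and 6.76 on the mESC arrays and at least 10.45 on all 8 others, although the R1 line is the labelled source of 8 of the arrays. Feeder fibroblast markers, of which 2 of 7 lay above the median gene in mESC, summed to 1657 to 1658 in linear intensity there. A difference of line and a difference of culture cannot be told apart in comparisons with mESC. Replicates differed more in p-NSC_L and CNS-NSC (SD of the replicate difference 0.31 in each) than in the other groups (0.15 to 0.19). In cultured populations, fewer cells of a kind and less RNA per cell cannot be told apart.

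Dmgdh, which encodes the mitochondrial dimethylglycine dehydrogenase, read 10.36 and 10.37 in p-NSC_LF. It read 7.40 and 7.16 in p-NSC_L, 6.81 and 6.74 in mESC, 6.76 and 6.96 in d-NSC, and 6.50 and 6.84 in CNS-NSC. The p-NSC_LF arrays thus stood far above the other 8, and the p-NSC_L arrays stood just above the remaining 6. The difference of p-NSC_LF from p-NSC_L was 3.09 ± 0.14 (8.5-fold), the value that placed Dmgdh on the list, and that of d-NSC from p-NSC_LF was -3.50 ± 0.14 (11.3-fold, without a test because it uses the same p-NSC_LF arrays). Outside the primitive stages no difference passed the test: d-NSC against mESC gave 0.09 ± 0.14 (adjusted p = 0.68), and d-NSC against CNS-NSC gave 0.19 ± 0.14 (adjusted p = 0.35). Outside p-NSC_LF its levels were below the array median.

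Bhmt2 encodes a methyltransferase that makes methionine from homocysteine, using S-methylmethionine as the methyl donor. Its 2 p-NSC_LF arrays read 10.03 and 9.97. The other 8 arrays lay between 7.07 and 7.54, with no overlap with p-NSC_LF. The difference of p-NSC_LF from p-NSC_L, also a value used to choose the genes, was 2.52 ± 0.12 (5.73-fold), and that of d-NSC from p-NSC_LF was -2.68 ± 0.12. Unlike Dmgdh, Bhmt2 read about the same in p-NSC_L (7.52 and 7.44) as in mESC (7.25 and 7.54), and these arrays overlapped. The difference of d-NSC from CNS-NSC, 0.19 ± 0.12 (adjusted p = 0.27), and that of d-NSC from mESC, -0.07 ± 0.12 (adjusted p = 0.69), did not pass the test. CNS-NSC against mESC gave -0.26 ± 0.12 (adjusted p = 0.10), or -0.41 (adjusted p = 0.037) without mESC replicate 1.

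Bhmt, the betaine-homocysteine methyltransferase gene itself, has 3 probe sets, and they disagreed in size. On the one with the highest mean (10457114), p-NSC_LF read 8.73 and 8.70, p-NSC_L 7.43 and 7.29, mESC 7.00 and 7.04, d-NSC 7.00 and 7.13, and CNS-NSC 6.86 and 7.21. The p-NSC_LF arrays again stood alone at the top, 1.35 ± 0.13 above p-NSC_L. On this probe set Bhmt fell from p-NSC_LF to d-NSC by 1.65 ± 0.13 (3.15-fold, adjusted p = 4.6e-06). The fall uses the same p-NSC_LF arrays as the choice of the list, so its p-values carry that limit. The probe set 10511886 gave -1.69 ± 0.13 for this fall (adjusted p = 4.7e-06). The dimmest, 10411142, read 6.78 and 6.49 in p-NSC_LF and 5.71 to 6.38 elsewhere, and its difference of -0.55 ± 0.20 missed the threshold (adjusted p = 0.051). Bhmt and Bhmt2 are close paralogs, and whether their probes read each other's RNA was not tested. By its number, 10411142 is close to the Bhmt2 probe set (10411147), and the brighter Bhmt probe sets are not. Where each probe set maps in the genome was not tested, so the larger differences belong to those probe sets and not with certainty to the Bhmt gene.

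**Figure D1:**
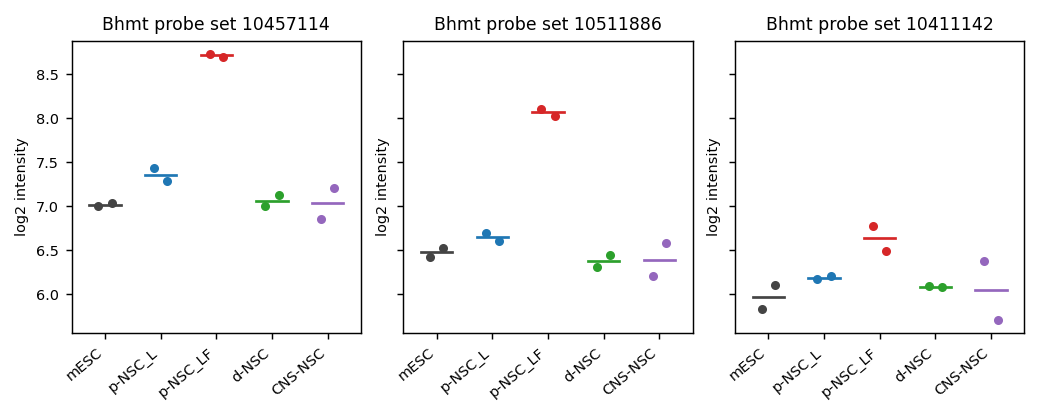
Log2 intensity of the 3 Bhmt probe sets by culture group; points are single arrays (2 per group) and bars are group means. In each panel the p-NSC_LF arrays are the highest, with a step from p-NSC_L of 1.35, 1.42 and 0.45 from left to right.

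In p-NSC_LF against p-NSC_L, Dmgdh, Bhmt2 and Bhmt were the 3 of 9 genes with a value that limma called, all higher, against 1.78% of all genes called in either direction, 1.1% higher and 0.677% lower. This comparison chose the genes, so nothing is read from that count. The other 6 differed by between -0.22 (Shmt1) and 0.48 (Mthfd2) in this step. Hepatocyte markers were at a low level throughout: none of the 6 (Alb, Fga, Fgb, Tat, Cps1 and Pck1) reached the median gene in any group. Their summed linear intensity was 645 to 680 in p-NSC_LF, 590 to 651 in p-NSC_L and 519 to 631 in the rest. Visceral and primitive endoderm markers summed to 1788 to 1818 in p-NSC_LF and 1834 to 2167 in p-NSC_L. Feeder fibroblast markers summed to 1467 to 1472 in p-NSC_LF, below the 1971 to 2810 of p-NSC_L. Most of that gap was in Dcn, which read 8.79 and 10.41 in p-NSC_L and 7.28 and 7.24 in p-NSC_LF. Means of Col1a1 (8.43 in p-NSC_L, 8.32 in p-NSC_LF) and Thy1 (8.72 and 8.66) were close.

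**Figure D2:**
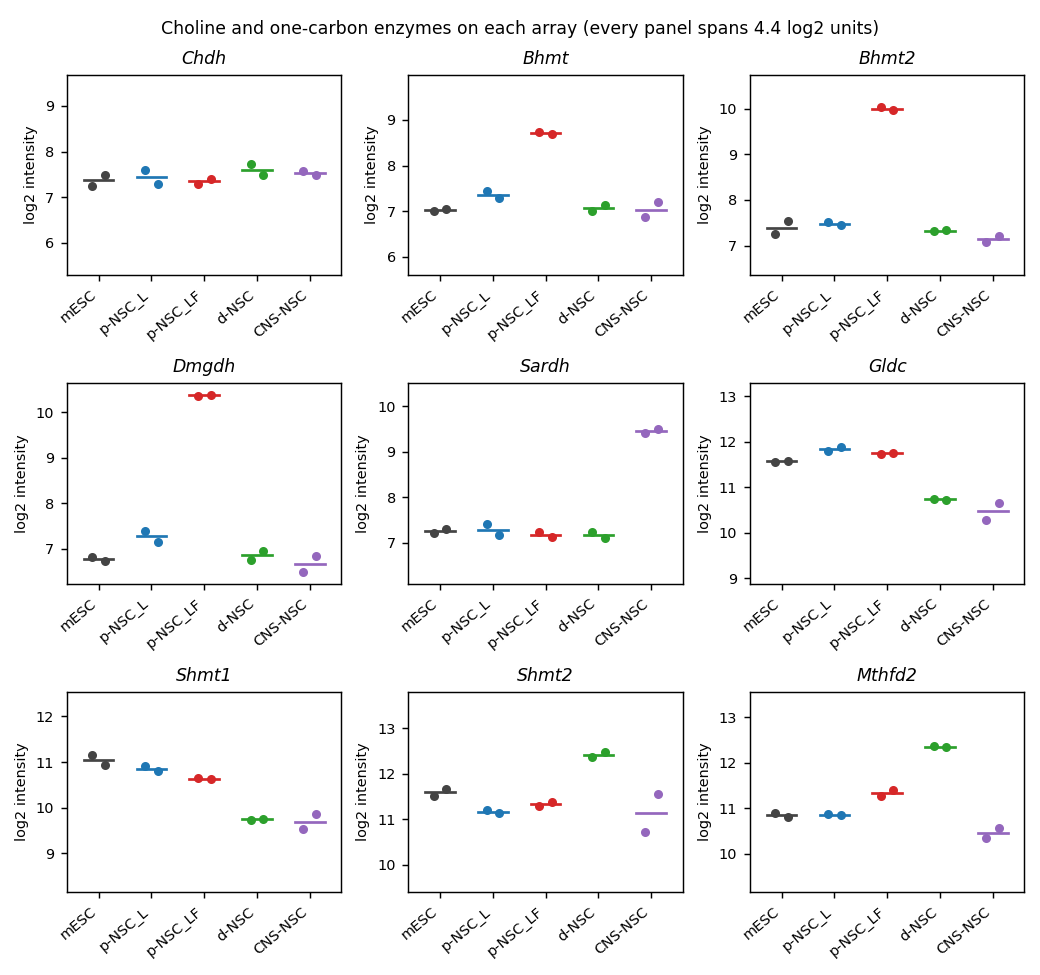
Log2 intensity of the 9 enzymes with a value by culture group; points are single arrays (2 per group), bars are group means, and every panel spans the same number of log2 units around its own range. Dmgdh, Bhmt2 and Bhmt peak in p-NSC_LF, Sardh in CNS-NSC, and Shmt2 and Mthfd2 in d-NSC, while Gldc and Shmt1 step down in d-NSC and CNS-NSC and Chdh stays between 7.25 and 7.73.

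The 3 genes are neighbours in the order Bhmt, Bhmt2, Dmgdh. The list was chosen with their p-NSC_LF values known, so their position is given as a description. Bhmt is read here from 10457114, whose place in the genome was not tested. On 10411142 the step of Bhmt from p-NSC_L to p-NSC_LF was 0.45 ± 0.20. Of the 4 measured protein-coding genes on each side, only Lhfpl2, a tetraspan membrane protein gene, changed in p-NSC_LF against p-NSC_L, higher by 0.82 ± 0.10 (adjusted p = 0.0032). Lhfpl2 went on rising into d-NSC, by 0.80 ± 0.10 (adjusted p = 9.8e-05), where the 3 methyl-group genes were low. Arsb, the lysosomal arylsulfatase B gene next to Dmgdh, read 7.61 and 7.75 in p-NSC_LF and 7.36 and 7.41 in p-NSC_L (0.30 ± 0.14, adjusted p = 0.42). Arsb was highest in CNS-NSC instead, at 8.93 and 9.41. On the far side of Bhmt, Jmy, an actin nucleation factor gene, differed by -0.22 ± 0.16 (adjusted p = 0.66) and the synaptic scaffold gene Homer1 by 0.00 ± 0.10 in p-NSC_LF against p-NSC_L. The other 4 neighbours (Cmya5, Tent2, Scamp1 and Ap3b1) differed by -0.18 to 0.18. A further protein-coding gene in the stretch, Gm6109, was not analysed here.

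**Figure D3:**
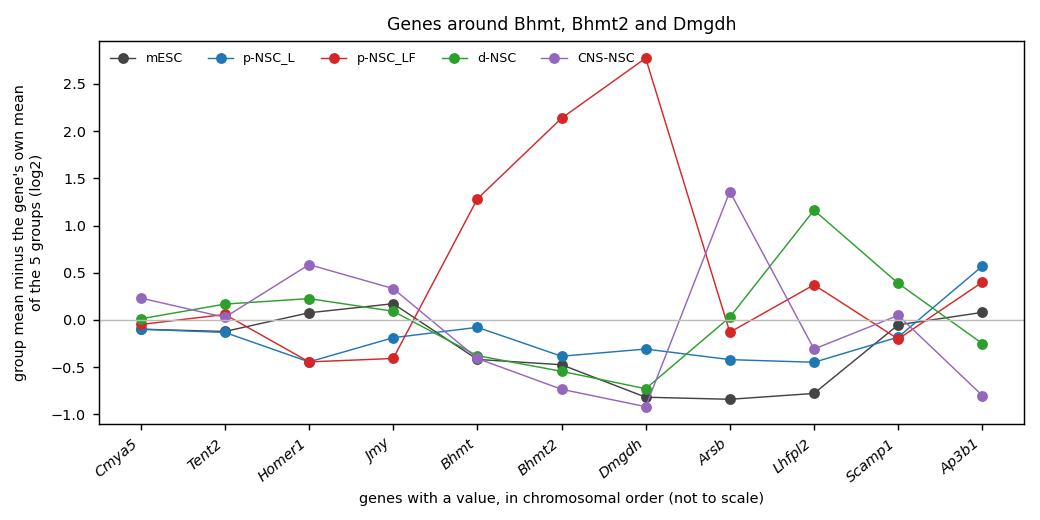
Group means of the 11 measured genes around Bhmt, Bhmt2 and Dmgdh in chromosomal order, each minus the gene's own mean of the 5 groups (log2; spacing not to scale; lines only join points of a group). The p-NSC_LF points rise above the rest at Bhmt, Bhmt2 and Dmgdh and not at Jmy or Arsb on either side. Bhmt is plotted from probe set 10457114, whose place in the genome was not tested.

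Head-to-head pairs of protein-coding genes numbered 570 in the promoter table, and 6.5% of the 17492 genes there belong to one. In such a pair the plus-strand start lies no more than 300 bases after the minus-strand start.

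Likeness to Dmgdh and Bhmt2 was measured as the root mean square difference of the 5 group means, each gene centred on its own mean, over 5651 genes outside the list whose group means spanned at least 1. Tfap2a, a transcription factor gene of ectoderm and neural crest, was the closest to both (0.41 to Dmgdh and 0.21 to Bhmt2), followed by Serpinb6b, a serine protease inhibitor gene (0.44 and 0.21). Tfap2a read 10.02 and 9.73 in p-NSC_LF and at most 7.79 on the other arrays. Serpinb6b read 8.60 and 8.54 in p-NSC_LF and at most 6.42 elsewhere. The third place went to Calr4 for Dmgdh (0.64) and to Pglyrp1, a peptidoglycan recognition protein gene, for Bhmt2 (0.46). Dmgdh and Bhmt2 themselves stood 0.35 apart. These distances describe 5 group means of 2 arrays each and carry no test.

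Chdh, the choline dehydrogenase that opens the route, moved least. Its arrays lay between 7.25 and 7.73 in all 5 groups, and every pair of groups next to each other in level overlapped. Its group means, 7.35 to 7.60, were below the array median (7.66 to 7.76). Differences at such dim levels come out smaller than they are. Of the tested differences, the one nearest to a call was d-NSC against p-NSC_LF, at 0.25 ± 0.14 (adjusted p = 0.20). With an SE of 0.14, differences of that size were not detectable with these arrays.

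Sardh, the sarcosine dehydrogenase that follows Dmgdh in the route, was high in CNS-NSC instead. It read 9.41 and 9.50 there and between 7.11 and 7.41 on the other 8 arrays. The groups did not overlap: Sardh was lower in d-NSC than in CNS-NSC by -2.28 ± 0.11 (4.87-fold, adjusted p = 2.4e-07) and higher in CNS-NSC than in mESC by 2.20 ± 0.11 (4.59-fold, adjusted p = 1.4e-07). From p-NSC_LF to d-NSC it differed by less than the spread (adjusted p = 0.98). So the genes of consecutive steps peaked in different cultures, Dmgdh in p-NSC_LF and Sardh in CNS-NSC. Neural stem cell markers had a summed linear intensity of 40278 to 40394 in CNS-NSC, 20416 to 21051 in d-NSC and 1558 to 2018 in the other groups, so they were also highest in CNS-NSC, but they were high in d-NSC, where Sardh was low.

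Gldc encodes the glycine decarboxylase of the glycine cleavage system. It read 11.55 and 11.58 in mESC, 11.79 and 11.88 in p-NSC_L, 11.74 and 11.76 in p-NSC_LF, 10.74 and 10.73 in d-NSC, and 10.29 and 10.66 in CNS-NSC. The 6 arrays of cultures with Lif, which differ from the rest in other medium components too, were all above the 4 without it. Gldc fell from p-NSC_LF to d-NSC by 1.01 ± 0.12 (2.02-fold, adjusted p = 1.1e-04), and CNS-NSC lay below mESC by -1.09 ± 0.12 (adjusted p = 4.4e-05). The difference between d-NSC and CNS-NSC, 0.26 ± 0.12, did not pass the test (adjusted p = 0.14) but did without CNS-NSC replicate 2 (0.45, adjusted p = 0.014).

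Shmt1, the cytosolic serine hydroxymethyltransferase, followed the same outline. It read 11.16 and 10.93 in mESC, 10.91 and 10.80 in p-NSC_L, and 10.65 and 10.62 in p-NSC_LF. In d-NSC it read 9.74 and 9.76, and in CNS-NSC 9.53 and 9.86, so these groups overlapped each other and lay below all Lif cultures. Shmt1 fell from p-NSC_LF to d-NSC by 0.89 ± 0.13 (1.85-fold, adjusted p = 3.8e-04). Against mESC it was lower in d-NSC by -1.30 ± 0.13 (adjusted p = 2.9e-05) and in CNS-NSC by -1.35 ± 0.13 (adjusted p = 1.4e-05). The smaller steps among the Lif cultures, -0.19 ± 0.13 from mESC to p-NSC_L (adjusted p = 0.43) and -0.22 ± 0.13 from p-NSC_L to p-NSC_LF, are given as values only.

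Shmt2, the mitochondrial counterpart of Shmt1, moved the other way in d-NSC. It read 12.37 and 12.47 there, against 11.30 and 11.38 in p-NSC_LF, 11.20 and 11.13 in p-NSC_L, 11.52 and 11.66 in mESC, and 10.73 and 11.55 in CNS-NSC. Both d-NSC arrays were above the other 8, while the CNS-NSC arrays spanned most of the remaining range. Shmt2 rose from p-NSC_LF to d-NSC by 1.08 ± 0.21 (2.11-fold, adjusted p = 0.0022) and was higher in d-NSC than in CNS-NSC by 1.28 ± 0.21 (adjusted p = 9.1e-04). Shmt2 was higher in d-NSC than in mESC by 0.83 ± 0.21 (adjusted p = 0.0098), a call lost without mESC replicate 1 (0.75, adjusted p = 0.066) or d-NSC replicate 2 (0.78, adjusted p = 0.063). CNS-NSC against mESC gave -0.45 ± 0.21 (adjusted p = 0.11), or -0.87 (adjusted p = 3.9e-04) without CNS-NSC replicate 2.

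Mthfd2 encodes the mitochondrial methylenetetrahydrofolate dehydrogenase and cyclohydrolase, which acts after Shmt2. It read 12.36 and 12.35 in d-NSC, 11.27 and 11.40 in p-NSC_LF, 10.87 and 10.85 in p-NSC_L, 10.89 and 10.80 in mESC, and 10.36 and 10.57 in CNS-NSC. The order of the groups was d-NSC, p-NSC_LF, then p-NSC_L and mESC, which overlapped, and CNS-NSC lowest. Mthfd2 rose from p-NSC_LF to d-NSC by 1.02 ± 0.11 (2.03-fold, adjusted p = 4.2e-05). The difference between d-NSC and CNS-NSC was 1.89 ± 0.11 (3.71-fold, adjusted p = 6.2e-07), the largest of the 9 enzymes in that comparison after Sardh. CNS-NSC lay below mESC by -0.38 ± 0.11 (adjusted p = 0.016), a call lost without mESC replicate 1 or CNS-NSC replicate 1 (adjusted p = 0.11 each) and with only those groups in the fit (adjusted p = 0.053).

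Counted over the enzymes, 5 of the 7 tested in d-NSC against p-NSC_LF passed (Dmgdh and Bhmt2 left out), where 38.6% of all genes were called. Of the 5, Shmt2 and Mthfd2 were the 2 higher (19.3% of all genes) and Bhmt, Gldc and Shmt1 the 3 lower (19.3%). Bhmt is counted from probe set 10457114, and on 10411142 it missed the threshold (-0.55 ± 0.20, adjusted p = 0.051). All 5 calls use the p-NSC_LF arrays behind the choice of the list. In d-NSC against CNS-NSC 2 of 9 were higher (17.6% of all genes) and 1 lower (16.5%), with 34% called in either direction. In d-NSC against mESC 2 were higher (20.7% of all genes) and 2 lower (19.9%), with 40.5% in either direction. In CNS-NSC against mESC 1 was higher (21.7%) and 3 lower (22.1%), with 43.8% in either direction. The median difference of the enzymes was -0.26 in this last comparison, against 0.04 over all genes, and 0.19 in d-NSC against CNS-NSC, against -0.01. In p-NSC_L against mESC limma called none of the 7, and 1 (Bhmt) had an unadjusted p under 0.05, where 13.4% of all genes were called (6.56% higher and 6.79% lower). Bhmt (0.34 ± 0.13, adjusted p = 0.12) and Shmt2 (-0.43 ± 0.21, adjusted p = 0.24) did pass there without CNS-NSC replicate 1 or without CNS-NSC replicate 2 (adjusted p = 0.048 and 0.02). The enzymes were chosen with results known and several comparisons share arrays, so no count sets them apart from other genes. From p-NSC_LF to d-NSC, neural stem cell markers went from 1558 to 1695 up to 20416 to 21051 in summed linear intensity, ES cell markers from 35419 to 37953 down to 8393 to 9046, and endoderm markers from 1788 to 1818 up to 3082 to 3099. Feeder fibroblast markers went from 1467 to 1472 up to 2379 to 2507, most of it in Dcn (mean 7.26 to 9.54), while Thy1 went down (8.66 to 7.98). Of the 4 neuron markers, 4 instead of 2 lay above the median gene, while their sum went from 6476 to 6539 down to 5206 to 5274. The lower sum comes from Stmn2 (mean 12.54 to 11.41), while Dcx (5.79 to 9.15), Tubb3 (7.46 to 8.46) and Map2 (8.23 to 10.64) went up. The part of all these markers in the enzyme results was not tested.

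Other genes of the same pathways, 44 of 52 listed with a value, were set beside the enzymes by role. In d-NSC against p-NSC_LF 11 rose and 19 fell, where 19.3% of all genes were called higher and 19.3% lower, with a median difference of -0.24 against -0.01 over all genes. Of 15 folate cycle and transport genes 4 rose and 7 fell. Aldh1l2, the mitochondrial formyltetrahydrofolate dehydrogenase, rose by 2.60 ± 0.17 (adjusted p = 1.5e-06), reading 11.15 and 11.12 in d-NSC and 8.43 and 8.63 in p-NSC_LF. Mthfd2l, a mitochondrial relative of Mthfd2, rose by 1.24 ± 0.10. Aldh1l1, the cytosolic relative of Aldh1l2, fell by 2.37 ± 0.20 and Mthfd1, the trifunctional cytosolic folate enzyme, fell by 1.46 ± 0.10. Slc25a32, the mitochondrial folate carrier gene, fell by 1.00 ± 0.11.

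Of 8 genes of serine synthesis, glycine cleavage and threonine breakdown, 3 rose and 3 fell in the same step. For this and the next role groups, the share over all genes is again 19.3% higher and 19.3% lower. Slc6a9, the glycine transporter GlyT1, rose by 2.21 ± 0.28 and Phgdh, the first enzyme of serine synthesis, by 1.04 ± 0.12. The glycine cleavage gene Amt, which works in the same complex as Gldc, fell by 0.86 ± 0.14, and Gcat, which follows Tdh in threonine breakdown, fell by 0.83 ± 0.11. Gcsh, the complex's lipoyl carrier, was the other of the 3 that fell, and Dld, its shared lipoamide dehydrogenase, was not called. Of 9 methionine cycle and transsulfuration genes, 2 rose and 6 fell. Cbs, cystathionine beta-synthase, fell by 2.34 ± 0.13 (adjusted p = 3.8e-07), from 10.74 and 10.72 to 8.50 and 8.28, and Mtrr, methionine synthase reductase, fell by 0.92 ± 0.20. Of 12 choline genes 2 rose and 3 fell. The choline transporter-like gene Slc44a1 fell by 2.51 ± 0.23 (5.68-fold), and the choline transporter gene Slc5a7 rose by 0.81 ± 0.13. Slc5a7 was dim in both groups, at 6.80 and 6.77 in d-NSC and 6.06 and 5.91 in p-NSC_LF. The array median was 7.66 to 7.76. Among the called of the 44 genes, the calls of Pipox (-0.51), Cth (-0.42) and Folr1 (-0.63) were lost without any 1 of the 4 arrays compared. Those of Chka (-0.50), Ggh (-0.62) and Mtap (0.41) were lost without p-NSC_LF replicate 2 or d-NSC replicate 1, and that of Mtfmt (-0.52) without d-NSC replicate 1. The call of the folate transport gene Slc19a1 (0.71) was lost with a gene's probe sets averaged (adjusted p = 0.10).

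**Figure D4:**
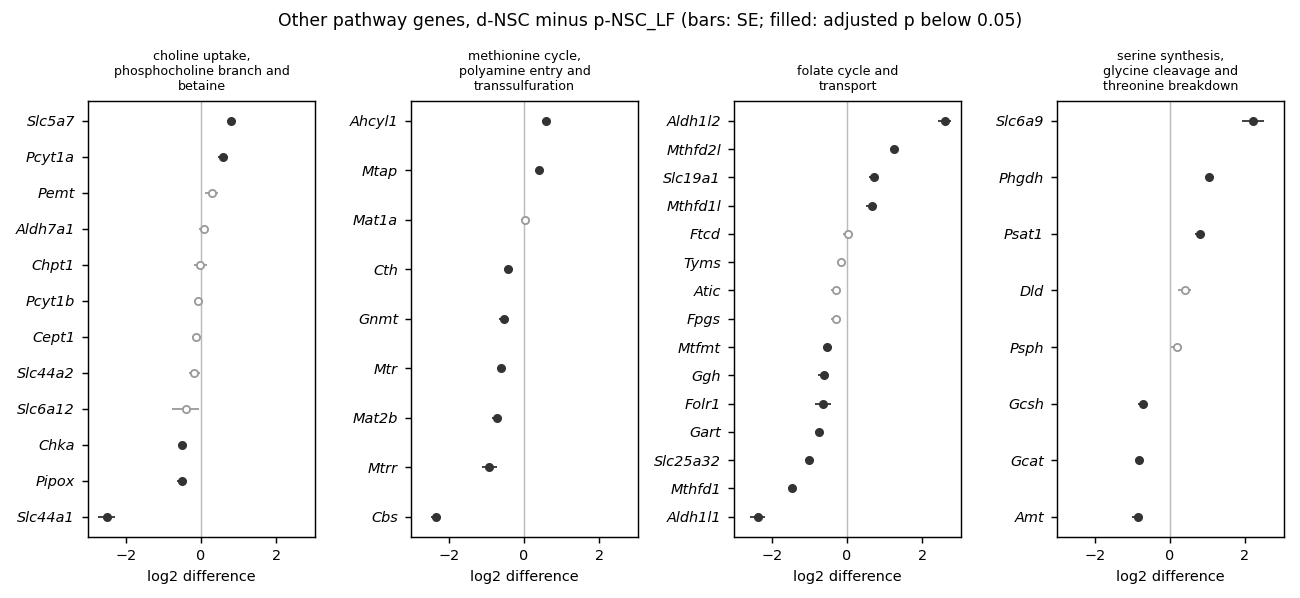
Difference of d-NSC from p-NSC_LF on the log2 scale for the 44 other pathway genes with a value, in 4 role groups; bars are SE from limma, filled points have an adjusted p below 0.05, and n is 2 arrays per group. Aldh1l2 and Slc6a9 lie farthest to the right and Slc44a1, Aldh1l1 and Cbs farthest to the left.

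In p-NSC_LF against p-NSC_L, 3 of the 44 rose and 1 fell (1.1% and 0.677% of all genes). Cbs rose by 0.70 ± 0.13 (adjusted p = 0.024), Aldh1l2 by 0.83 ± 0.17 (adjusted p = 0.043) and Mthfd2l by 0.58 ± 0.10 (adjusted p = 0.020), while Chka, choline kinase alpha, fell by 0.57 ± 0.12 (adjusted p = 0.043). None of the 4 calls held in every alternative: 0 of the 44 were called without p-NSC_LF replicate 1 or 2, 1 without d-NSC replicate 1 or 2, and 2 without mESC replicate 1 or 2. Pipox, the peroxisomal sarcosine oxidase gene, differed by -0.48 ± 0.14 (adjusted p = 0.14, though called without p-NSC_L replicate 1). Aldh7a1, an aldehyde dehydrogenase gene whose enzyme can form betaine, differed by 0.10 ± 0.12 (adjusted p = 0.83).

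In p-NSC_L against mESC 7 rose and 6 fell (6.56% and 6.79% of all genes), 13 in all, but 6 were called without mESC replicate 1, 5 without mESC replicate 2 and 8 without p-NSC_L replicate 1. Aldh1l1 rose by 2.03 ± 0.20 (adjusted p = 2.6e-04) and Cth, cystathionine gamma-lyase, by 0.91 ± 0.12, and Pcyt1b, a gene of phosphatidylcholine synthesis, fell by 1.70 ± 0.12 (adjusted p = 4.7e-05) and Phgdh by 0.95 ± 0.12. In d-NSC against CNS-NSC 14 of the 44 were higher and 13 lower (17.6% and 16.5% of all genes). Cth was 12.5-fold higher in d-NSC (3.64 ± 0.12, adjusted p = 2.0e-08), at 12.38 and 12.40 against 8.63 and 8.87 in CNS-NSC. Aldh1l2 was higher by 1.58 ± 0.17, the direction of Shmt2 and Mthfd2. Ggh, the gamma-glutamyl hydrolase that releases folate from its storage form, was lower in d-NSC by -1.69 ± 0.14, and Cbs, which acts just before Cth, was lower by -1.56 ± 0.13. In CNS-NSC against mESC 13 were higher and 20 lower (21.7% and 22.1% of all genes), with Mthfd2l higher by 2.60 ± 0.10 and Cth lower by -2.91 ± 0.12. In d-NSC against mESC 11 were higher and 19 lower (20.7% and 19.9% of all genes), with Aldh1l2 higher by 3.07 ± 0.17 and Slc6a9 by 2.85 ± 0.28.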

How the data were processed

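RNA of 10 mouse cultures was extracted with Trizol and labelled for Affymetrix gene arrays with the Ambion WT kit, per the labels' protocols. The table the authors deposited holds log2 values of 35556 probe sets on each array. RMA and Partek are named in the submitters' processing notes, with no version. RMA subtracts background, equalises arrays and combines the probes of a set, and differences between dim probe sets come out smaller than they are. That the base is 2 was inferred from the range of the values, 2.07 to 14.74. No build is named by the sources at hand. Raw scans and scan batches were not analysed here.

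Probe sets with 1 gene symbol in the platform annotation (21789) were used, and the one with the highest mean stood for each of 19938 genes. Several symbols were given to 1621 probe sets and none to 12146. Using limma 3.58.1 (R 4.3.3), a linear model with a mean for each group was fitted to the 10 arrays together (5 residual and 4.9 prior degrees of freedom), with Benjamini-Hochberg adjustment over all genes in each of 6 comparisons. The fit was tested on simulated data. Python 3.11.15, pandas 2.3.3 and matplotlib 3.10.9 made tables and plots. The enzymes and the other gene lists were chosen with earlier results of these data known. From each role group of pathway genes, up to 2 rising and 2 falling called genes with large differences could be named per comparison, neighbours were the 4 nearest measured protein-coding genes on each side, and the 3 genes most like Dmgdh and Bhmt2 were ranked by distance. A ranking for Tdh could not be made. Any further gene named was chosen after its values were seen. Promoter windows and gene order came from RefSeq, GRCm38.p6. Of the 9 enzymes all had a window. Alternatives were quantile normalization, leaving out the dimmer 50% of genes, a trended prior, a fit to those groups alone, a block for the replicate number, averaging a gene's probe sets, each array left out and, added after seeing the data, the other Bhmt probe sets.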

Additional observations from a re-analysis of the deposited data

How the results depend on the processing

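For 41 tested differences of single enzymes, up to 16 alternative settings each gave 0 reversed calls, 5 lost and 7 gained, in 7 of the differences, all named above with the array or setting concerned. The dimmest Bhmt probe set, an alternative added after seeing the data, lost 1 further call (d-NSC against p-NSC_LF, -0.55, adjusted p = 0.051). With the dimmer 50% of genes left out, Chdh, Bhmt, Bhmt2, Dmgdh and Sardh were no longer among the genes tested. In p-NSC_LF against p-NSC_L limma then called 1 enzyme of 4 (Mthfd2) instead of 3 of 9, but that comparison chose the genes, so nothing is read from either count. With only those groups in the fit, 6 other pathway genes were called in p-NSC_L against mESC instead of 13, and 0 in p-NSC_LF against p-NSC_L instead of 4. Leaving out 1 array at a time gave 0 to 2 enzymes called in p-NSC_L against mESC, and 5 to 18 other pathway genes there and 0 to 6 in p-NSC_LF against p-NSC_L.

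The replicate number as a block left the number of enzymes called as it was in all 6 comparisons (5 in d-NSC against p-NSC_LF) and gave 5 other pathway genes in p-NSC_LF against p-NSC_L. Replicate numbers were not taken as pairs: replicate deviations correlated between -0.11 and 0.37 across genes over 10 pairs of groups, over 0.1 in 6. Dim levels limit the folds of Dmgdh, Bhmt2 and Bhmt from below, and may make differences of Chdh smaller in the same way.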
